A study of Mus musculus with 6 samples.

Results

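The 164 immunoglobulin variable (V) genes described here were chosen by the gene type in the deposited table (IG_V_gene) and by their level, a mean of at least 10 normalized counts over all 6 libraries. They are 164 of 202 V genes listed and of 27202 genes in all. By locus, 81 of 101 heavy chain genes (Ighv), 80 of 97 kappa light chain genes (Igkv) and all 3 lambda light chain genes (Iglv) were members, and the other 38 V genes lay below the minimum. The level that chose them is a description and is given no test. The contrast between genotypes was not used by the rule, but the choice was made with earlier results of these data known.

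An antibody pairs heavy chains with light chains, and the antigen-binding end of each chain is encoded largely by a V gene. In a developing B cell the RAG recombinase joins a V gene to a J segment, with a D segment between them in the heavy chain, so that a B cell clone and the plasma cells made from it transcribe mainly the V genes they have joined. The colon lamina propria holds many plasma cells, most of which secrete IgA, and in a bulk library the counts on each V gene therefore add up over all clones that use it.

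Colon tissue was sequenced from 3 Nedd4l fl/fl Villin Cre mice (cKO) and 3 Nedd4l fl/fl littermates (WT). The floxed and Cre lines are on a C57BL/6J background, and the mice were 8 to 10 weeks old. All 6 mice, the controls included, carried the floxed alleles and drank 2% dextran sulfate sodium (DSS), which injures the colonic epithelium, until tissue was taken on day 7. The Villin promoter drives Cre in intestinal epithelial cells and not in B cells or plasma cells, so that the cells that transcribe V genes are not those in which Nedd4l is deleted, and the tissue holds both kinds. Untreated mice were not analysed here. Nedd4l had 476, 942 and 566 normalized counts in cKO replicates 1 to 3 and 1241, 1271 and 1266 in WT replicates 1 to 3, so every cKO library was below every WT library, with a log2 fold change of -0.99 ± 0.24 (SE, limma adjusted p = 0.225). Among members, WT replicate 2 stood apart: 109 of the 164 members had their lowest value there and 2 their highest, whereas 72 had their highest value in cKO replicate 2.

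The end of a V gene encodes the start of complementarity-determining region 3 (CDR3), the loop in which V meets D or J. The last 75 bases of the V exon of the 10 Ighv and Igkv members with the highest usage are shown because they tell these genes apart where they are joined. Sequences are from GENCODE M21 transcripts on GRCm38, in the direction of transcription, and the capitals mark the codons for 2 aromatic residues (tyrosine or phenylalanine) and the conserved cysteine that precedes CDR3. The Ighv stretches lay at chr12:114788372-114788446 (Ighv1-26), chr12:114288152-114288226 (Ighv3-6), chr12:113588267-113588341 (Ighv2-2), chr12:115952538-115952612 (Ighv1-82) and chr12:114140692-114140766 (Ighv9-3), all on the minus strand. The Igkv stretches lay at chr6:68631963-68632037 (Igkv10-96, minus strand) and, on the plus strand, at chr6:68121753-68121827 (Igkv1-117), chr6:67610434-67610508 (Igkv1-135), chr6:70698993-70699067 (Igkv3-2) and chr6:68271193-68271267 (Igkv1-110).
Ighv1-26: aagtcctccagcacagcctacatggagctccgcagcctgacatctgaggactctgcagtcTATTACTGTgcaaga
Ighv3-6: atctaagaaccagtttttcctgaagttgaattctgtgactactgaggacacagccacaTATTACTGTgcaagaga
Ighv2-2: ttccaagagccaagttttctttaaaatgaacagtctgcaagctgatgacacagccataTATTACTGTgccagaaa
Ighv1-82: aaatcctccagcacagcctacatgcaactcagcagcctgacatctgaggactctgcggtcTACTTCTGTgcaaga
Ighv9-3: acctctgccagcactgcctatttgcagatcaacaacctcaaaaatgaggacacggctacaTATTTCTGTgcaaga
Igkv10-96: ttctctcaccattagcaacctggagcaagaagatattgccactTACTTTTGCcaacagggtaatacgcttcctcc
Igkv1-117: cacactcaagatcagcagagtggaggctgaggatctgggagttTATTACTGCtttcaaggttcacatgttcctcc
Igkv1-135: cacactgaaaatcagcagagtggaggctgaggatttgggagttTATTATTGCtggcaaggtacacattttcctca
Igkv3-2: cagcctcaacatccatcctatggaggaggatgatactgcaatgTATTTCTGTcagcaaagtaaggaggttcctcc
Igkv1-110: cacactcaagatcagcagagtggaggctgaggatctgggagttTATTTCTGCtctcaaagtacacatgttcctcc

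The 5 heavy chain genes end within 8 bases of the cysteine codon. The 5 kappa genes carry 23 bases beyond it, so that a larger part of CDR3 is encoded by the kappa V gene itself.

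The lambda locus has 3 members, of which Iglv1 and Iglv2 are near copies. The last 290 bases of their V exons, at chr16:19085017-19085306 for Iglv1 and chr16:19260401-19260690 for Iglv2, both on the minus strand, are shown with capitals at the 7 bases that differ.
Iglv1: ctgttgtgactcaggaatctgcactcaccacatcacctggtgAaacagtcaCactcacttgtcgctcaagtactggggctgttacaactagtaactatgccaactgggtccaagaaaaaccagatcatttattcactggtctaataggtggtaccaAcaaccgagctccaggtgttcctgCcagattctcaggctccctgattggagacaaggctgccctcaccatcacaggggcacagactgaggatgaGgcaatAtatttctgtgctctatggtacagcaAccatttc
Iglv2: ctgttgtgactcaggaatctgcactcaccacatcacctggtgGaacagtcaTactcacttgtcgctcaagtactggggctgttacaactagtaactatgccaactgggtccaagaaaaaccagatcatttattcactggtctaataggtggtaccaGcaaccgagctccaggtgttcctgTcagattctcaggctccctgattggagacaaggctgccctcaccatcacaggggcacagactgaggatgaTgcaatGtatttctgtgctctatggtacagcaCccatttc

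All 164 members had the same chromosome, start, end and strand in GENCODE M21 as in the deposited table. The Ighv members spanned chr12:113578504-116000461, all on the minus strand. The Igkv members spanned chr6:67609713-70704177, with 31 on the plus and 49 on the minus strand, and the Iglv members spanned chr16:19085017-19260859. Sequence similarity limits what single V genes can show. For each member the share of 50-base stretches of its transcripts found in no other V gene or V pseudogene was computed. The median share was 77.2% in Ighv, 73.8% in Igkv and 77.8% in Iglv, and it was under 50% for 21 members. For 76 members the V exon was more than 95% identical to that of another member of the locus. How the counting treated reads that fit several genes is not stated, so values of near-identical members, such as Ighv1-52 and Ighv1-61 with 4 mismatches between their V exons, are uncertain.

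The summed counts of Ighv and of Igkv overlapped between the genotypes, and those of Iglv did not. Summed over the 81 Ighv members, the normalized counts were 15178, 27380 and 18332 in cKO replicates 1 to 3 and 19118, 6058 and 13623 in WT replicates 1 to 3. The genotypes overlapped, since WT replicate 1 was above cKO replicates 1 and 3. The means were 20296 ± 6334 in cKO and 12933 ± 6557 in WT (SD, n = 3), a log2 ratio of 0.65 that became 0.31 without WT replicate 2. A sum over members chosen with results known was given no p, and in whole tissue fewer cells of a type and less RNA per cell cannot be told apart.

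The kappa sum followed the heavy chain sum across libraries. It was 20390, 30346 and 22125 in cKO and 23200, 7417 and 16706 in WT replicates 1 to 3, with a log2 ratio of the means of 0.62, or 0.28 without WT replicate 2. The highest and the lowest library were again cKO replicate 2 and WT replicate 2, which differed 4.09-fold for Igkv and 4.52-fold for Ighv.

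The lambda sum was 5183, 7906 and 5319 in cKO and 4479, 1466 and 3249 in WT. Here each cKO library was above each WT library. The means were 6136 ± 1534 and 3064 ± 1515 (SD, n = 3), a log2 ratio of 1.00, or 0.67 without WT replicate 2. Together the members took 0.262, 0.398 and 0.288% of all normalized counts in cKO replicates 1 to 3 and 0.292, 0.0946 and 0.212% in WT replicates 1 to 3.

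**Figure D1:**
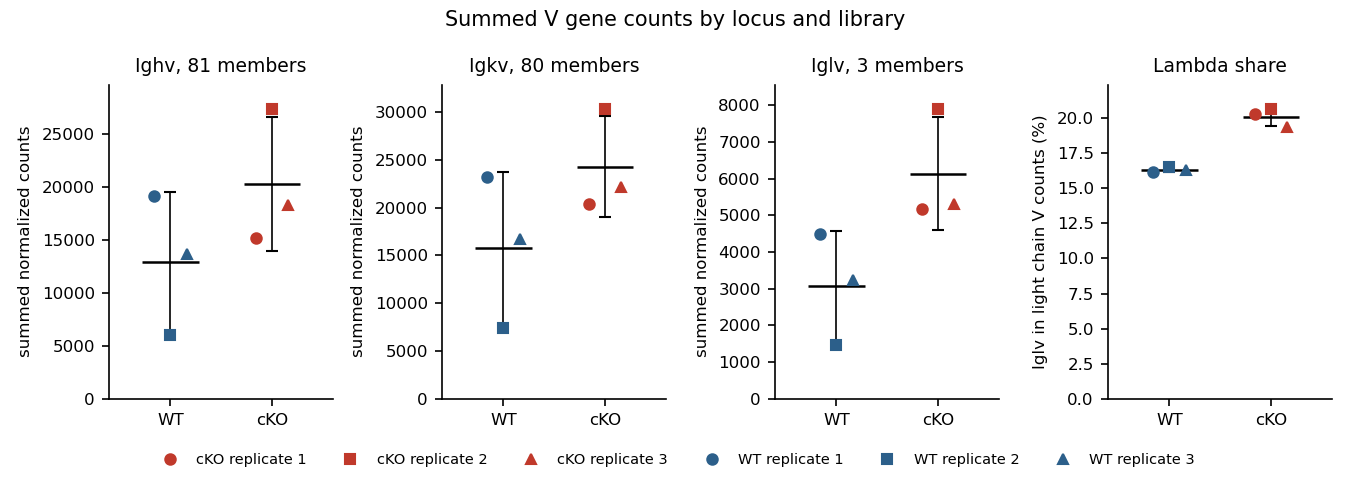
Summed normalized counts of the Ighv, Igkv and Iglv members, and the Iglv share of light chain V counts in percent, for WT and cKO; each point is 1 library, the horizontal line is the mean and the bar is 1 SD (n = 3). The genotypes overlap for Ighv and Igkv and do not for Iglv, whose share of light chain V counts lies from 16.2% to 16.5% in WT and from 19.4% to 20.7% in cKO.

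Mouse light chains are mostly kappa, with a smaller lambda fraction. Iglv members held 20.3, 20.7 and 19.4% of light chain V counts in cKO replicates 1 to 3 and 16.2, 16.5 and 16.3% in WT replicates 1 to 3. The genotypes did not overlap, and the difference of 3.78 percentage points was larger than the SD within either genotype (0.658 in cKO and 0.163 in WT). If 1 step of the values is 1 read, the Wilson 95% intervals, which cover counting error only, ran from 18.9% to 21.1% over the cKO libraries and from 15.8% to 17.2% over the WT libraries. The difference lay between 3.50 and 4.15 with any 1 library left out.

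In the constant genes, too, every cKO library was above every WT library, although the order of libraries within a genotype differed. The lambda constant genes (Iglc) held 9.46, 10.9 and 9.02% of light chain constant counts in cKO and 6.66, 6.14 and 7.62% in WT. In every library this was below the lambda share of V counts, so neither share is read as the fraction of lambda chains. Most of the lambda V signal was Iglv1, and without it the Iglv share was 4.89, 2.86 and 4.06% in cKO and 1.55, 2.00 and 5.37% in WT, which overlapped. The lambda share was chosen after its values were seen and is given without a test.

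V counts were also set against the constant genes of the same chain. Per 100 counts of Igkc, the kappa constant gene, the Igkv members had 31.0, 35.2 and 32.0 counts in cKO and 29.4, 20.8 and 23.5 in WT, with every cKO library above every WT library. Per 100 heavy chain constant counts, the Ighv members had 9.32, 14.0 and 12.2 in cKO and 10.01, 6.02 and 8.33 in WT, which overlapped. Per 100 Iglc counts, the Iglv members had 75.4, 75.3 and 77.6 in cKO and 79.6, 62.7 and 55.4 in WT, which also overlapped.

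Usage was spread over many genes. The usage share of a V gene is its normalized count per base of gene length, divided by the sum of this over the members of its locus in the same library. In Ighv the mean share over 6 libraries ran from 0.0544% to 5.59% with a median of 0.905%, and in Igkv from 0.0512% to 7.25% with a median of 0.852%.

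Ighv1-26 was the most used heavy chain gene, with 5.70, 4.49 and 6.11% of Ighv usage in cKO and 5.37, 4.30 and 7.56% in WT. Ighv3-6 followed at 6.49, 3.20 and 5.14% in cKO and 5.33, 5.29 and 7.64% in WT. For both genes the genotypes overlapped, and the order of the 2 genes differed between libraries, so they do not differ beyond their spread. Ighv1-82, another of the 5 leading genes, had 3.33, 4.15 and 1.73% in cKO and 5.15, 1.93 and 3.09% in WT, again overlapping.

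Ighv2-2 and Ighv9-3 had higher shares in every cKO library than in any WT library. Ighv2-2 held 5.39, 6.08 and 5.20% of Ighv usage in cKO and 2.68, 1.91 and 2.78% in WT. Its normalized counts were 787, 1596 and 917 in cKO and 491, 112 and 361 in WT, a log2 fold change of 1.95 ± 0.60 (SE, limma adjusted p = 0.301). Of the 50-base stretches of Ighv2-2, 44.6% were found in no other V gene, and its V exon was 97.0% identical to that of Ighv2-5. Ighv9-3 held 4.84, 2.67 and 4.12% in cKO and 2.00, 2.09 and 2.51% in WT, with a log2 fold change of counts of 1.54 ± 0.42 (limma adjusted p = 0.276). Neither passed the adjusted threshold of 0.05.

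Igkv10-96 and Igkv1-117 led the kappa locus. Igkv10-96 had 7.27, 8.09 and 7.48% of Igkv usage in cKO and 8.28, 5.39 and 6.99% in WT. Igkv1-117 had 8.40, 5.81 and 8.24% in cKO and 5.73, 8.91 and 2.78% in WT, the widest range of any WT share among the 5 leading kappa genes. Both overlapped between genotypes, and each was the highest kappa gene in 3 of the 6 libraries.

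Igkv1-135 was the only leading kappa gene whose shares did not overlap, at 4.41, 4.18 and 3.08% in cKO and 5.02, 6.53 and 4.97% in WT. Its normalized counts overlapped, with a log2 fold change of 0.25 ± 0.38 (SE). Igkv3-2 showed the reverse: its counts did not overlap (1403, 2273 and 590 in cKO, 457, 128 and 448 in WT, log2 fold change 2.05 ± 0.70, limma adjusted p = 0.315), while its shares did, at 6.77, 7.35 and 2.62% in cKO and 1.94, 1.70 and 2.63% in WT. Igkv1-110 had 3.77, 2.97 and 2.79% in cKO and 2.79, 3.44 and 2.93% in WT.

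In the lambda locus, Iglv1 held 79.1, 88.2 and 81.6% of usage in cKO and 91.5, 89.2 and 70.1% in WT. Iglv3 was second by mean because of WT replicate 3, in which it held 22.8%, against 4.17% and 5.14% in the other WT libraries and 5.34% to 11.5% in cKO. Iglv2 held 9.42, 6.45 and 11.9% in cKO and 4.34, 5.61 and 7.15% in WT. Its counts were 461, 480 and 599 in cKO and 183, 77.4 and 220 in WT, which did not overlap, with a log2 fold change of 1.80 ± 0.39 (SE, limma adjusted p = 0.211). For Iglv1 the log2 fold change of counts was 1.12 ± 0.45 (limma adjusted p = 0.355).

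**Figure D2:**
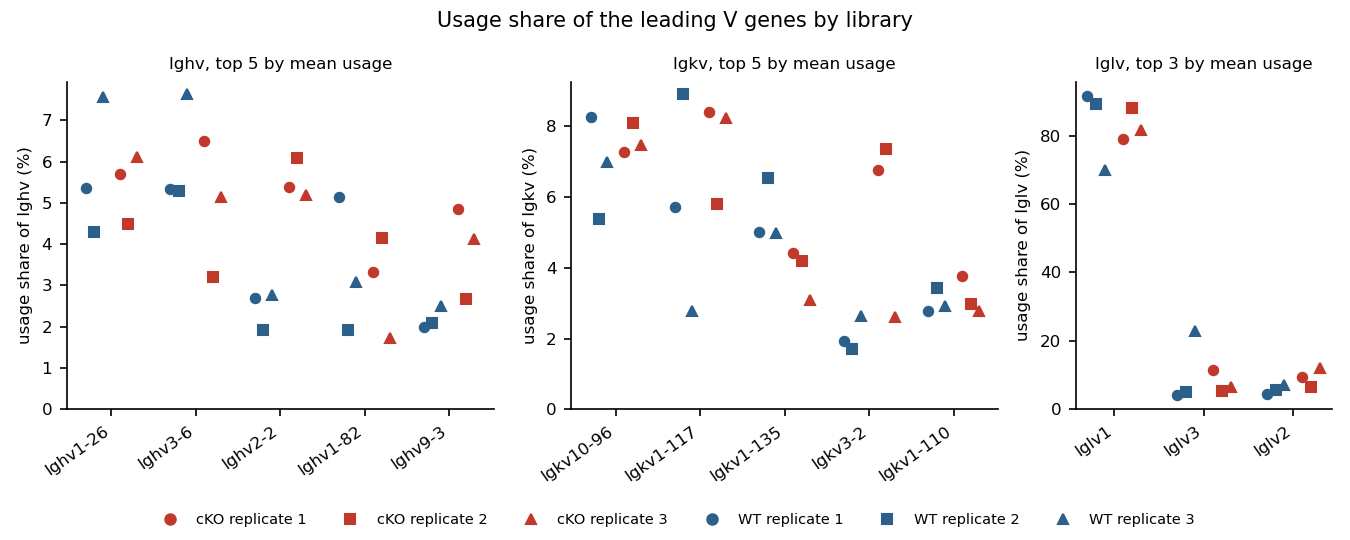
Usage share in percent of the locus for the 5 Ighv, 5 Igkv and 3 Iglv members with the highest mean usage; each point is 1 library, blue for WT and red for cKO, with the marker giving the replicate. The cKO points of Ighv2-2 (5.20% to 6.08%) lie above its WT points (1.91% to 2.78%), while those of Ighv1-26, Igkv10-96 and Iglv1 overlap.

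Over all 164 members, 8 (4.88%) had shares in the 3 cKO libraries that were all above the 3 WT libraries, and 11 (6.71%) had shares that were all below. Usage is defined within a locus, so no share over all tested genes can be set beside these counts, and they are not read as a difference between genotypes. These members were picked by their values and are given as a description. Of the 8 with higher shares, 7 also had higher counts without overlap: Ighv2-2, Ighv9-3, Ighv3-8, Ighv1-34, Igkv4-57, Igkv6-25 and Igkv13-84. The other was Ighv7-1, whose counts overlapped. The 11 with lower shares were Ighv5-17, Ighv14-2, Ighv10-1, Ighv1-69, Ighv5-2, Igkv1-135, Igkv5-39, Igkv6-20, Igkv4-61, Igkv6-14 and Igkv14-130, and the counts of all 11 overlapped between genotypes.

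Evenness did not differ between the genotypes by more than the spread within them. The effective number of genes, the exponential of the Shannon entropy of the shares, is the number of equally used genes that would give the same entropy. For Ighv it was 52.3, 52.4 and 55.2 in cKO and 53.5, 55.5 and 48.9 in WT, of 81 members. The difference of 0.68 was smaller than the SD of 1.67 in cKO and of 3.40 in WT.

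For Igkv the effective number was 44.1, 48.4 and 49.3 in cKO and 46.4, 49.4 and 50.6 in WT, of 80 members. The difference of -1.52 was smaller than the SDs of 2.75 and 2.17. For Iglv it was 1.93, 1.56 and 1.81 in cKO and 1.42, 1.52 and 2.17 in WT. WT replicate 2, which had the fewest V gene counts, was not the least even library: it had the highest Ighv value. With the values thinned to the smallest total of each locus, the differences were 0.65 for Ighv and -1.53 for Igkv.

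Other measures gave the same picture. The 5 highest Ighv genes of a library held from 20.9% to 26.2% of its Ighv usage, and 14 to 18 genes made up 50% of it. The 5 highest Igkv genes held from 22.8% to 30.6%, and 12 to 15 genes made up 50%. Every member had a value above 0 in cKO replicates 1 and 3 and WT replicates 2 and 3, whereas 1 (Ighv1-56) was at 0 in cKO replicate 2 and 2 (Igkv3-3 and Igkv1-132) were at 0 in WT replicate 1.

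**Figure D3:**
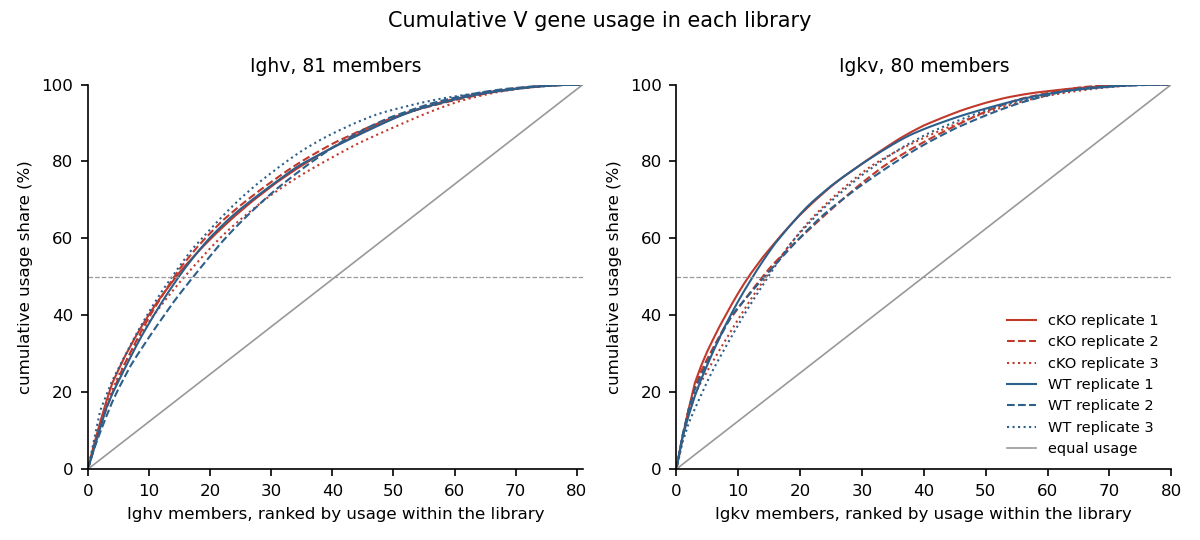
Cumulative usage share in percent against the number of Ighv (left) and Igkv (right) members, ranked by usage within each library; each line is 1 library, red for cKO and blue for WT, and the grey diagonal is equal usage. The lines cross and lie close together, and all reach 50% at 14 to 18 Ighv genes and at 12 to 15 Igkv genes.

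The identity of the used genes differed between mice of the same genotype as well. The share of Ighv usage not shared by a pair of libraries was 20.9% to 27.98% within cKO (3 pairs), 25.4% to 28.9% within WT (3 pairs) and 24.3% to 32.2% between genotypes (9 pairs). For Igkv it was at most 22.3% within cKO, 23.8% to 27.0% within WT and 20.9% to 27.5% between genotypes. The ranges between genotypes overlapped those within a genotype in both loci.

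V genes are grouped into families by sequence, and the first number of a V gene name gives the family. Family 1 held 53.8, 53.9 and 51.7% of Ighv usage in cKO and 59.4, 55.4 and 52.7% in WT, with 43 of the 81 members. In Igkv, family 1 (8 members) averaged 16.4% and family 4 (20 members) 15.7% over the 6 libraries. Of 12 Ighv families, 1 did not overlap between the genotypes: family 14, with 4 members, at 3.14, 3.54 and 4.07% in cKO and 5.99, 4.12 and 4.08% in WT. The nearest values, 4.07% and 4.08%, were almost equal. Of 17 Igkv families, 1 did not overlap: family 13, with 2 members, at 1.45, 2.21 and 1.48% in cKO and 0.920, 1.11 and 0.804% in WT. Both families were picked by their values and are given as a description.

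V genes lie in a row at growing distances from the J segments to which they are joined. The 27 Ighv members nearest to the J segments held 29.8, 27.6 and 33.2% of usage in cKO and 26.4, 29.0 and 29.3% in WT. The 27 farthest held 34.9, 38.7 and 31.8% in cKO and 44.8, 40.0 and 36.9% in WT. In Igkv the 27 farthest members held 47.1, 40.4 and 45.7% in cKO and 45.7, 47.9 and 39.4% in WT. All of these overlapped between genotypes. Kappa V genes lie in both orientations, and those on the minus strand, opposite to the J segments, are joined by inversion. The 49 minus strand members held 51.5, 54.8 and 57.4% of Igkv usage in cKO and 54.1, 52.6 and 62.7% in WT, which also overlapped.

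Across all 16246 genes with a mean of at least 10, log2(normalized count + 1) was compared between cKO and WT in limma. At an adjusted p under 0.05, 0 members were higher and 0 were lower in cKO, as were 0.0% and 0.0% of all tested genes. At an unadjusted p under 0.05, 36 of the 164 members (22.0%) were higher in cKO, against 6.91% of all tested genes, and 0 were lower, against 7.08%. By locus the 36 were 20 Ighv, 14 Igkv and 2 Iglv members. V genes of 1 sample share their plasma cells, so members are not independent of each other.

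The direction was shared by most members. The log2 fold change was above 0 in 141 of 164 members, against 8160 of 16246 tested genes, and its median was 0.80 over members and 0.0013 over all tested genes. In counts, 26 members (15.9%) had all cKO libraries above all WT libraries, against 10.5% of tested genes, and 0 had all below, against 10.9%. Without WT replicate 2 the median over members was 0.33, 105 had a log2 fold change above 0 and 20 had an unadjusted p under 0.05 in the higher direction (4.88% of tested genes). Without WT replicate 1 these values were 1.10, 146 and 54 (5.96% of tested genes).

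**Figure D4:**
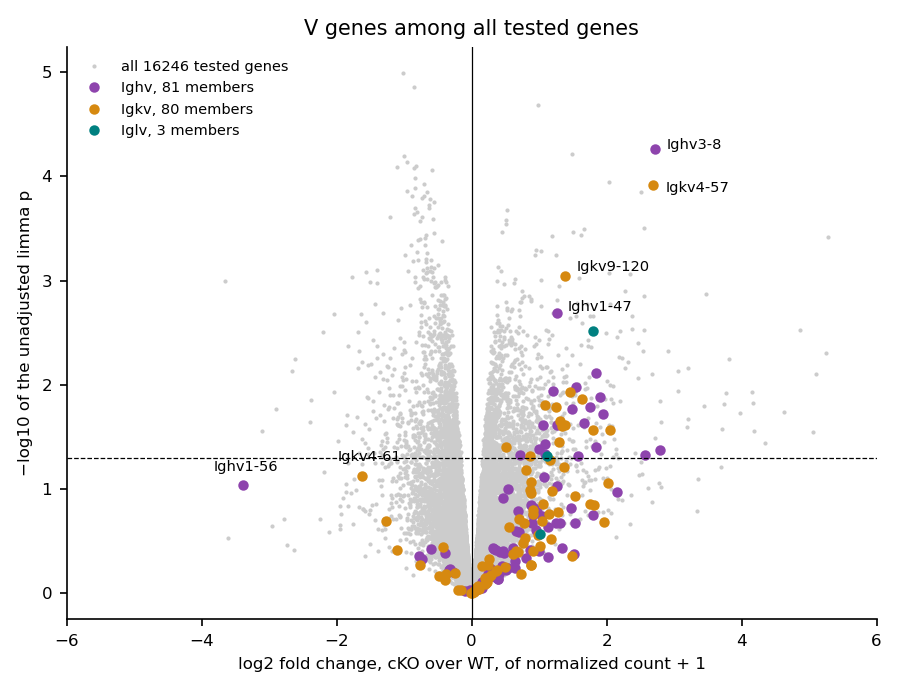
Log2 fold change (cKO over WT) on the x axis against −log10 of the unadjusted limma p on the y axis for the 16246 tested genes (grey) and the Ighv, Igkv and Iglv members (colored); the dashed line marks an unadjusted p of 0.05. Of the members, 36 lie above the line on the cKO side and 0 on the WT side, and none passed the adjusted threshold.

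Ighv3-8 and Igkv4-57 had the smallest p among members. Ighv3-8 (chr12:114322327-114322801, minus strand) had 283, 200 and 181 normalized counts in cKO replicates 1 to 3 and 52.3, 20.7 and 31.0 in WT replicates 1 to 3. Every cKO library was above every WT library. The log2 fold change was 2.71 ± 0.35 (SE), with a limma p of 5.4e-05 and an adjusted p of 0.116. Its usage share was 1.73, 0.681 and 0.915% in cKO and 0.256, 0.317 and 0.212% in WT.

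Ighv3-8 belongs to family 3, as does the highly used Ighv3-6, whose share overlapped between genotypes. Both genes are shown over the 200 bases that end with the conserved cysteine codon, at chr12:114322382-114322581 (Ighv3-8) and chr12:114288160-114288359 (Ighv3-6), on the minus strand, with capitals at the 27 bases that differ. Of the 50-base stretches of Ighv3-8, 99.7% were found in no other V gene.
Ighv3-8: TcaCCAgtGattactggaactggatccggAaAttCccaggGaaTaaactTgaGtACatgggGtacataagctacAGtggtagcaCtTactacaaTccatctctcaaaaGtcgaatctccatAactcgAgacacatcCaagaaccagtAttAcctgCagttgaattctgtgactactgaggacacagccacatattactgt
Ighv3-6: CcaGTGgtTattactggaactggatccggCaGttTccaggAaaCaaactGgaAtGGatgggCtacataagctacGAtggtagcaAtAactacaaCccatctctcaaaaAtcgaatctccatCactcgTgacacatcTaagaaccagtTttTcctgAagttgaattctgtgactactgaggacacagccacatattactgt

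Igkv4-57 (chr6:69575975-69576500, minus strand) had 468, 413 and 559 normalized counts in cKO and 127, 45.9 and 66.9 in WT. The libraries of the genotypes did not overlap. The log2 fold change was 2.69 ± 0.35 (SE), with a limma p of 1.2e-04 and an adjusted p of 0.116, and the usage share was 2.42, 1.44 and 2.66% in cKO and 0.579, 0.655 and 0.421% in WT.

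Only 49.2% of the 50-base stretches of Igkv4-57 were found in no other V gene, and its nearest member was Igkv4-55. The last 290 bases of their V exons, at chr6:69575975-69576264 (Igkv4-57) and chr6:69607275-69607564 (Igkv4-55), minus strand, differ at the 16 bases in capitals. Igkv4-55 had 230, 84.0 and 168 normalized counts in cKO and 77.0, 62.1 and 69.9 in WT, with a log2 fold change of 1.08 ± 0.35 (SE, limma adjusted p = 0.287).
Igkv4-57: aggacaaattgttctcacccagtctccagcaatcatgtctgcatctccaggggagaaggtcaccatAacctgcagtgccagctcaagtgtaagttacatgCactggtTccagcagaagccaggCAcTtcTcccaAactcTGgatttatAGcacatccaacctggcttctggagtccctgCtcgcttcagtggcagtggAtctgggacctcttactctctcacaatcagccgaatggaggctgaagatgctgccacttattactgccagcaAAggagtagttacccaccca
Igkv4-55: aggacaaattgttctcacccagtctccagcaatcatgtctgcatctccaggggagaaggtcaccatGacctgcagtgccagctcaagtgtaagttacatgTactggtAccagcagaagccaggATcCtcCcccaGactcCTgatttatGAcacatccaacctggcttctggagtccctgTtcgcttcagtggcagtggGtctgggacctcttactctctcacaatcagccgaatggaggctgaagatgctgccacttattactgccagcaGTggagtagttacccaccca

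Igkv9-120 and Ighv1-47 came next by p. Igkv9-120 (chr6:68049983-68050456, plus strand) had 208, 358 and 282 normalized counts in cKO and 140, 79.2 and 106 in WT, a log2 fold change of 1.38 ± 0.27 (SE, limma adjusted p = 0.169). Ighv1-47 (chr12:114991108-114991580, minus strand) had 66.1, 59.7 and 78.4 in cKO and 30.6, 34.2 and 20.0 in WT, a log2 fold change of 1.26 ± 0.28 (limma adjusted p = 0.202). The counts of both did not overlap between genotypes, but their usage shares did: WT replicate 2, with the lowest sums, had 1.13% for Igkv9-120 and 0.520% for Ighv1-47.

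In the other direction the smallest p was that of Igkv4-61 (chr6:69416893-69417455, minus strand). It had 24.9, 105 and 59.8 normalized counts in cKO and 407, 144 and 80.9 in WT, a log2 fold change of -1.62 ± 0.75 (SE, limma adjusted p = 0.396). Ighv1-56 (chr12:115242802-115243235, minus strand) had 4.79, 0 and 39.2 in cKO and 10.9, 98.1 and 227 in WT, a log2 fold change of -3.39 ± 1.68 (limma adjusted p = 0.421). Igkv6-14 (chr6:70434952-70435476, minus strand) had 21.1, 50.9 and 128 in cKO and 221, 44.1 and 204 in WT. Igkv2-112 (chr6:68219981-68220706, plus strand) had 58.5, 44.2 and 19.6 in cKO and 71.1, 49.5 and 35.9 in WT, and without cKO replicate 3 its log2 fold change turned from -0.43 to 0.02. The counts of all of them overlapped between genotypes.

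Some V genes were high in 1 library alone. In 19 of 164 members (11.6%), 1 library held at least 50% of the sum over the 6 libraries, against 1.02% of all tested genes. This library was cKO replicate 2 for 7 members, cKO replicate 3 for 6, WT replicate 1 for 4 and WT replicates 2 and 3 for 1 each. Of the 19, 7 had a mean of at least 100.

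Ighv8-5 had 661 normalized counts in cKO replicate 2, 79.3% of its sum, and 17.1 to 42.2 in the other libraries. Ighv10-3 had 1435 in cKO replicate 2 (75.6%), where it held 5.11% of Ighv usage, against 0.214% in cKO replicate 1 and 2.26% in WT replicate 2. Its neighbor in sequence, Ighv10-1, with 10 mismatches in the V exon, ranged from 112 to 332 normalized counts. The highest value of Ighv10-1 was also in cKO replicate 2.

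Ighv7-1 had 481 normalized counts in cKO replicate 3 (68.1%) and 6.30 to 89.5 elsewhere. Igkv4-90 had 540 in cKO replicate 3 (63.6%) and 23.4 to 129 elsewhere. Ighv1-77 was the highest of these in a WT library, with 536 in WT replicate 1 (63.6%) and 3.60 to 125 elsewhere. Ighv5-9 had 355 (58.1%) and Igkv12-41 had 421 (51.2%) in cKO replicate 2.

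**Figure D5:**
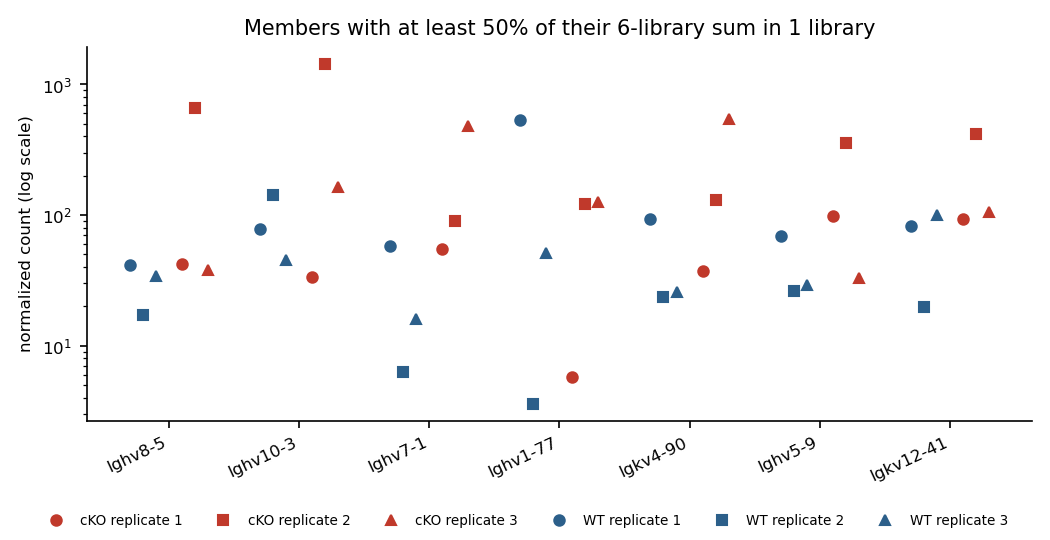
Normalized counts on a log scale for the 7 members with a mean of at least 100 and at least 50% of their 6-library sum in 1 library; each point is 1 library, blue for WT and red for cKO, with the marker giving the replicate. One point stands above the rest for each gene, such as cKO replicate 2 at 1435 for Ighv10-3 and WT replicate 1 at 536 for Ighv1-77.

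Near the minimum that chose the members, values were low and uneven. The members just inside were Ighv1-43 with a mean of 10.02, Igkv14-130 with 10.2 and Ighv5-2 with 10.6. The V genes just outside were Igkv7-33 with a mean of 9.99, Ighv2-6-8 with 8.85 and Igkv4-51 with 8.59. Igkv7-33 had 37.4 normalized counts in cKO replicate 1 and at most 7.22 elsewhere.

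Markers of the cells that transcribe V genes were read beside these values. Plasma cell markers followed the V sums in part. Jchain, which encodes the joining chain of IgA and IgM polymers, had 28403, 39655 and 28546 normalized counts in cKO and 38977, 19440 and 32804 in WT, lowest in WT replicate 2 as the V sums were, with a log2 fold change of 0.12 ± 0.28 (SE, limma adjusted p = 0.862). Mzb1, an endoplasmic reticulum protein of antibody-secreting cells, had 843, 869 and 727 in cKO and 724, 478 and 715 in WT. Xbp1, a transcription factor of secretory cells, had 6321 to 6746 in cKO and 6448 to 6830 in WT and was not lowest in WT replicate 2. Tnfrsf17, which encodes the receptor BCMA, had 42.2, 99.5 and 54.7 in cKO and 53.3, 28.8 and 62.9 in WT.

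Of the 14 plasma cell markers tested, 0 had an unadjusted p under 0.05 in either direction, 8 had a log2 fold change above 0 and the median was 0.03. Their summed level was 51476 to 65067 in cKO and 42283 to 65015 in WT. Jchain was the largest part of this sum in every library, so markers with low counts, such as Mzb1 and Tnfrsf17, weighed little in it. Their part in the V gene values was not tested.

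B cell markers had another order. Ms4a1, which encodes CD20, had 712, 365 and 219 normalized counts in cKO and 181, 317 and 453 in WT, and Cd79a, a signaling chain of the B cell receptor, had 1010, 574 and 388 in cKO and 411, 490 and 733 in WT. Both were highest in cKO replicate 1 and neither was lowest in WT replicate 2. All 14 B cell markers had a log2 fold change above 0, against 50.2% of all tested genes, with a median of 0.33, and 0 had an unadjusted p under 0.05. Each of the 14 was highest in cKO replicate 1, so their shared direction leaned on that library. Their summed level was 7351, 3615 and 2738 in cKO replicates 1 to 3 and 2036, 3543 and 5055 in WT replicates 1 to 3, which overlapped.

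Of the other lists, Pou2af1, a coactivator of the octamer factors that act at V gene promoters, had 1098, 803 and 663 normalized counts in cKO and 548, 408 and 791 in WT. Among the 3 octamer factor genes 1, Pou2f1, was higher at an unadjusted p under 0.05, as were 6.91% of all tested genes. Pou2f1 had 640, 611 and 661 in cKO and 570, 507 and 545 in WT (log2 fold change 0.24, limma adjusted p = 0.324). Ung, a uracil DNA glycosylase that acts in base excision repair, was named after its values were seen and had 233, 232 and 225 normalized counts in cKO and 370, 433 and 443 in WT (log2 fold change -0.85 ± 0.12, limma adjusted p = 0.116). Of 7 genes of V(D)J recombination and the surrogate light chain, 1 (Vpreb3) was tested, with a log2 fold change of 0.42. None of the T cell (7), epithelium (5) and IgA transport (1) genes had an unadjusted p under 0.05, with medians of 0.06, -0.01 and -0.22 on the log2 scale. No gene of these lists passed an adjusted p of 0.05.

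Other immunoglobulin segments were read in the same way. The 24 V pseudogenes summed to 29.7, 28.7 and 28.9 normalized counts in cKO and 13.8, 14.4 and 37.9 in WT. J segments summed to 846, 922 and 741 in cKO and 960, 436 and 800 in WT, and D segments to at most 5.75 in any library. The constant genes summed to 235433, 292419 and 226840 in cKO and 275572, 138696 and 240423 in WT, a log2 ratio of 0.21, and were lowest in WT replicate 2 as the V genes were.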

How the data were processed

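RNA sequencing of colon from 3 cKO and 3 WT mice was read from 1 table. The authors deposited normalized counts per gene, a signal in which the reads of each library are divided by 1 size factor; every value was a whole multiple of a step of 0.900 to 1.11, and the totals were 14914400 to 17547300 steps per library. Per the submitters' processing notes, HISAT2 2.0.5 and featureCounts 1.5.0-p3 were used; their settings for strand and shared reads are not stated, and the notes name a human genome build (hg18) although the table holds mouse genes at GRCm38 coordinates. The table's columns of genotype means, fold changes and p-values from the authors' own comparison were not used. The table holds 0 other columns of sample values.

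The 164 members, the marker lists and the comparisons were chosen with earlier results of these data known. Genes with a mean of at least 10 were tested (16246) on log2(value + 1) with limma 3.58.1 (trend, robust) under R 4.3.3, two-sided, with Benjamini-Hochberg adjustment over all of them and a threshold of 0.05, after a check of the fit on simulated data. Sums, usage and evenness were computed in Python 3.11.15 and given no test. Figures were drawn with matplotlib 3.10.9. V exons were aligned with Biopython 1.88. Named are the 5 most used members of each locus, the 4 with the smallest p in each direction, those with a mean of at least 100 and at least 50% of their sum in 1 library, those nearest the minimum of 10, and marker genes, of which some are not reported here; others were named after their values were seen. Replicates are separate samples per the labels, and p-values measure the spread between these samples. Groups came from the sample titles. Alternatives were other filters, pseudocounts, scalings, weights, a replicate block, other usage rules and each library left out.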

Additional observations from a re-analysis of the deposited data

How the results depend on the processing

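At an adjusted p under 0.05 the number of members higher in cKO was 0 as reported and 1 with no filter on low values. Without that filter 30 of 27202 genes passed in either direction. With array weights 8 members were higher, and 631 of 16246 genes passed in either direction. With 1 library left out 0 to 2 members were higher, the 2 being without cKO replicate 2, where 122 of 16246 genes passed in either direction. At an unadjusted p under 0.05 the number of members higher in cKO was 36 as reported (6.91% of tested genes). With 1 library left out this number was 20 to 54, against 4.88% to 8.93% of tested genes. It was lowest, at 20, without cKO replicate 2 (8.93% of tested genes) and without WT replicate 2 (4.88%). The number lower at an unadjusted p under 0.05 was 0 as reported, 1 with array weights, 1 with the replicate block and 0 to 3 with 1 library left out. The matching shares of all tested genes were 7.08%, 13.1%, 6.48% and 4.55% to 8.77%. Array weights gave Ighv3-8 an adjusted p of 0.0095, Igkv4-57 0.0097, Igkv9-120 0.016 and Ighv1-47 0.021, whereas the adjusted p of Ighv3-8 ran, across the alternatives, from 0.0094 to 0.487. The weights were 0.414, 0.562 and 4.39 for cKO replicates 1 to 3 and 0.921, 0.792 and 1.34 for WT replicates 1 to 3. The weighted fit therefore leaned on cKO replicate 3. With 1 library left out, the log2 fold change of Igkv2-112 ran from -0.75 to 0.018, changing sign without cKO replicate 3. The same-numbered samples did not deviate together (correlations of -0.03, -0.09 and -0.06), so the numbers do not pair them. The replicate block gave 34 members higher and 1 lower at an unadjusted p under 0.05, against 7.41% and 6.48% of tested genes. With 1 library left out, the log2 ratio of the sums was 0.31 to 1.04 for Ighv, 0.28 to 1.01 for Igkv and 0.67 to 1.38 for Iglv, and the difference in effective number was -1.19 to 2.13 for Ighv and -2.73 to 0.05 for Igkv, so the sign of both depended on the library left out (cKO replicate 3 or WT replicate 3 for Ighv, cKO replicate 1 for Igkv). Fits of the count models edgeR and DESeq2 were not run, since whole reads were not established for every library. The causes of these changes were not tested. With 3 libraries per genotype and 14940 to 65632 V counts per library, differences within this spread could not be detected.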

Other observations

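The constant genes of several isotypes were picked here with their values in view, none passed an adjusted p of 0.05, and isotypes were not compared by a test. Igha, the IgA constant gene, had 147268, 181803 and 142074 normalized counts in cKO replicates 1 to 3 and 183089, 96002 and 156378 in WT replicates 1 to 3, which overlapped (log2 fold change 0.16, limma adjusted p = 0.792). Ighg1, the IgG1 constant gene, had 6253, 5523 and 3903 in cKO and 1180, 613 and 1019 in WT, with every cKO library above every WT library (log2 fold change 2.50, limma adjusted p = 0.116). Ighe, the IgE constant gene, had 52.7, 73.0 and 61.9 in cKO and 20.7, 13.5 and 30.0 in WT (log2 fold change 1.56, limma adjusted p = 0.192). Ighg2b and Ighg2c overlapped between genotypes, with log2 fold changes of 0.45 and 0.22. The IgG constant genes are similar in sequence, so their counts are uncertain where reads are shared.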
